A study of Mus musculus with 24 samples.

Results

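The solute carriers enriched in the mouse yolk sac were followed here through the loss of Setd2 or of its enzyme activity at embryonic day 9.5. The set holds 62 genes of the 395 whose symbol begins with Slc, out of 55421 genes in the count table of each tissue. A gene belonged to it when its mean level over the 4 yolk sac WT libraries was 10 CPM (read counts scaled to a common library total) or more and at least 3 times its mean over the 2 null embryo WT libraries. Of the 395 genes, 178 reached that level and 66 also passed the ratio. By name, 14 Slc genes were left out, among them 4 of the 66 (Slc25a37, Slc4a1, Slc3a2 and Slc22a18). The members were thus chosen by their level in WT tissue, so that level and its excess over the WT embryo are a description of the choice and carry no test.

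The yolk sac feeds the rodent embryo before the placenta works. Its outer layer, the visceral endoderm, is an absorptive epithelium with microvilli on its outer face. It takes up protein by receptor-mediated endocytosis through cubilin and megalin and digests it in lysosomes. Solute carriers then move amino acids, sugars, metal ions, vitamins, sulphate and organic acids across the apical, lysosomal and basolateral membranes towards the mesoderm and the blood islands below. Setd2 is the methyltransferase that adds the third methyl group to lysine 36 of histone H3 in transcribed genes.

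RNA of whole embryos and of yolk sacs of C57BL/6 mice was sequenced after poly(A) library preparation. In each tissue, homozygous (HO), heterozygous (HE) and wild-type (WT) samples were collected from a Setd2 null line and from a line with a catalytic dead (CD) Setd2 allele, named in the series title as derived from a patient, with 2 libraries for each of the 12 groups. The labels name no Cre or tissue-specific driver for either allele. The deleted or changed bases and the litters are not given in the labels, which also do not say that replicates were separate animals, so p-values measure the spread between these libraries only. Library totals were 16400137 to 22113787 counts in yolk sac and 23414255 to 27674831 in embryo.

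Setd2 itself was at 75.7 and 80.9 CPM in null HO yolk sacs, against 112 and 119 in null HE and 103 and 115 in the null yolk sacs labelled WT (-0.60 ± 0.09 log2 units against HE, adjusted p = 0.00406). The heterozygous and labelled WT values interleave, which goes against the label, since null embryos had 92.02 and 103 CPM in HO, 169 and 158 in HE and 234 and 233 in WT. The reason was not tested. Because of this the group is called the null yolk sacs labelled WT throughout. In CD yolk sacs Setd2 was at 195 and 198 CPM in HO, 171 and 187 in HE and 175 and 184 in WT (0.07 ± 0.09 against WT, adjusted p = 0.728), so its RNA level does not check the labels of that line. Sex was read from Xist and Y-linked transcripts. In the null line HO replicate 1 and HE replicate 1 were male and the other yolk sacs female. Both CD HO yolk sacs were male, both CD WT and 1 CD HE yolk sac were female, and the other CD HE library (replicate 2) held transcripts of both sexes, so in that line genotype and sex cannot be told apart from these groups alone.

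The tissue matched its label. The 18 visceral endoderm markers, among them alpha-fetoprotein (Afp), apolipoprotein B (Apob), transthyretin (Ttr) and cubilin (Cubn), summed to 32632 to 51013 CPM in yolk sac. The members took 1.11% to 1.52% of all yolk sac counts and 0.145% to 0.272% of embryo counts. The rule that chose the members favours this gap, so it is no check of the label. In bulk tissue, fewer cells of a type and less RNA per cell cannot be told apart.

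By function the 62 members fall into 10 classes. Levels of different genes are compared here per length, as the deposited FPKM averaged over the 4 yolk sac WT libraries (± SD, n = 4). Sugar and inositol carriers were 5 members with 29.7% of the members' summed FPKM, nearly all of it from Slc2a3 (GLUT3, a high-affinity glucose carrier) at 686 ± 92.95 FPKM and Slc2a2 (GLUT2, the low-affinity glucose carrier of liver and gut) at 108 ± 3.75 FPKM. Carriers of organic anions, cations and monocarboxylates were 16 members with 26.1%. They were led by Slc16a1 (MCT1, which moves lactate and pyruvate with protons) at 383 ± 69.2 FPKM and Slc13a4 (a sodium-coupled sulphate carrier, also known from placenta) at 136 ± 18.2 FPKM. Slco4c1, an organic anion carrier, had 42.6 ± 4.05 FPKM.

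The 6 metal carriers held 8.96% of the summed FPKM. Slc39a8 (ZIP8, importer of zinc, manganese and iron) had 84.1 ± 13.9 FPKM, Slc39a5 (ZIP5, a basolateral zinc importer) 71.6 ± 8.14 FPKM and Slc39a4 (ZIP4, the zinc importer of the intestine) 44.3 ± 3.64 FPKM. The class also holds the iron exporter Slc40a1 (ferroportin), the zinc exporter Slc30a1 and the manganese exporter Slc30a10. The 12 amino acid carriers held 8.82%, with Slc7a8 (LAT2, an exchanger of neutral amino acids) at 92.3 ± 9.33 FPKM. They include the kidney and gut uptake system: Slc7a9 for cystine and basic amino acids, Slc6a18 and Slc6a19 for neutral ones, and the basolateral exchanger Slc7a7.

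Slc23a1 (SVCT1), which takes up vitamin C with sodium, had 41.6 ± 3.04 FPKM, and Slc25a10, the dicarboxylate carrier of mitochondria, had 36.04 ± 4.09 FPKM. Slc9a3r1 stands among the members by its symbol but is no carrier. It encodes the scaffold NHERF1 of microvilli and had 377 ± 38.8 FPKM. Near the lower edge of the rule, Slc6a19 (10.2 CPM) and Slc47a1 (10.8 CPM) were just inside, and Slc25a43 (9.72 CPM) and Slc5a1 (9.56 CPM) just outside. On the ratio of yolk sac to embryo, Slc35g1 (3.04) and Slc38a9 (3.11) were just inside and Slc35b4 (2.80) and Slc25a44 (2.69) just outside. Slc6a18 had 0 counts in both null embryo WT libraries, so it was at least 261-fold higher in yolk sac WT, taking 3 counts over both libraries as the floor.

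**Figure D1:**
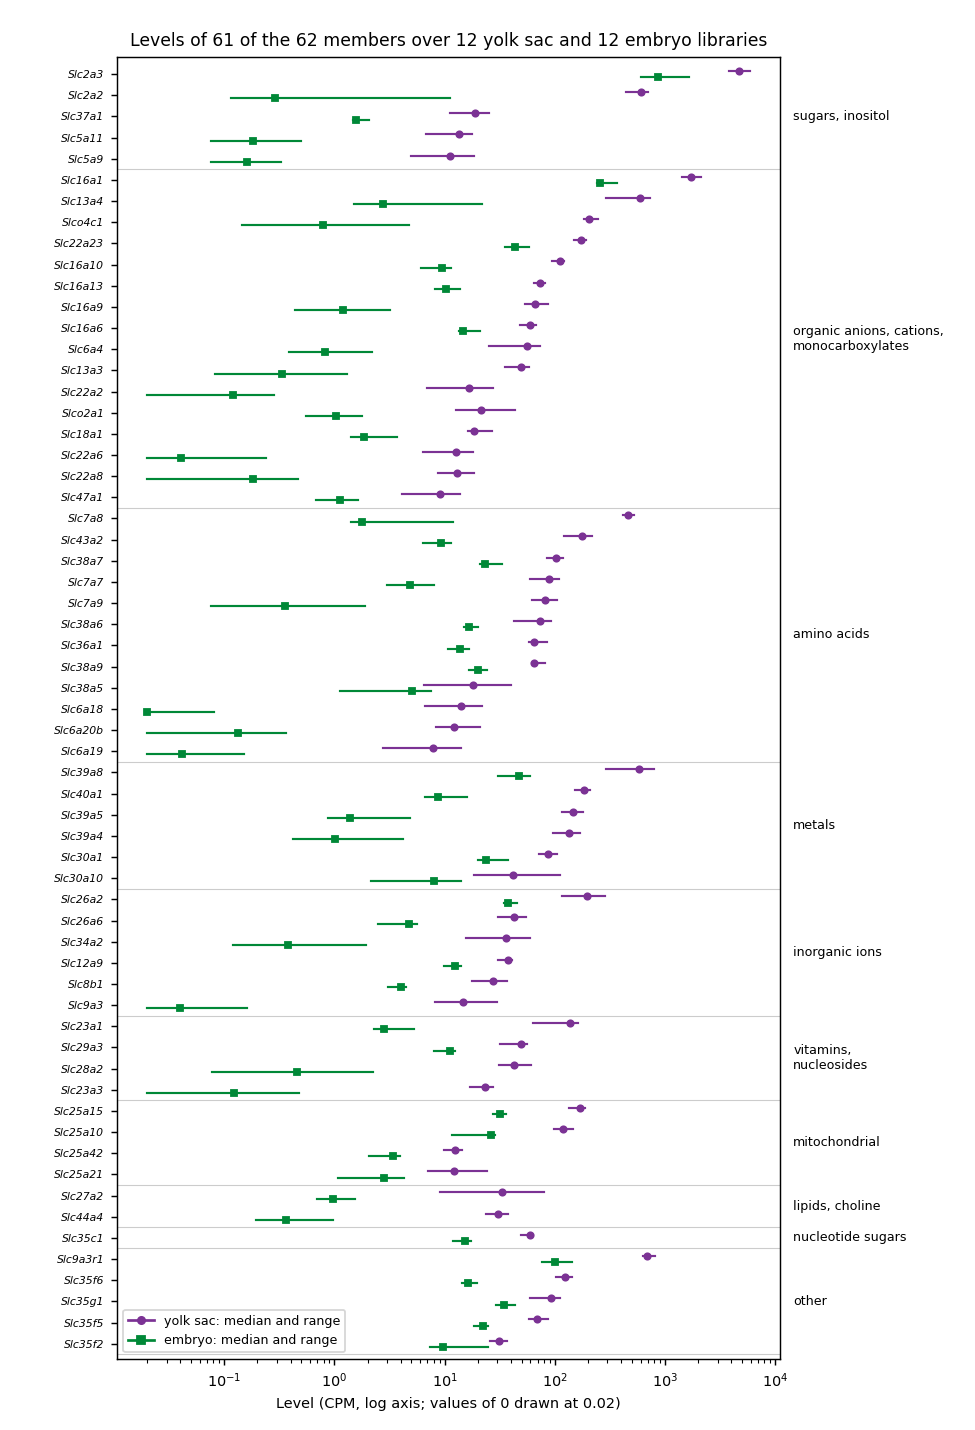
Level of 61 of the 62 members in CPM on a log axis, with the median (marker) and the range (line) over the 12 yolk sac and the 12 embryo libraries; values of 0 are drawn at the left edge. Slc38a5 is the 1 member drawn whose lowest yolk sac library does not lie above its highest embryo library.

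The excess in yolk sac was also present in libraries that the rule had not used. Of the 62 members 53 passed the filter on low counts within embryo. In HE samples all 53 were called higher in yolk sac than in embryo (edgeR, adjusted p below 0.05), where 34.3% of all 20543 genes tested were called higher and 71.6% in either direction. In HO samples all 53 were called as well, where 33.7% of all genes were called higher and 69.7% in either direction. The other 9 (Slc22a2, Slc22a6, Slc22a8, Slc23a3, Slc5a9, Slc6a18, Slc6a19, Slc6a20b and Slc9a3) entered the fit through their yolk sac level alone, so their calls, also higher in yolk sac, were set by the choice. The median excess over the 62 was 3.89 log2 units in HE and 3.91 in HO. It was 0.62 and 0.58 for the 104 Slc genes that reach the level minimum but not the ratio. The ratio itself parted these 104 from the members, so that gap was set by the choice and is no test. The 2 tissues came in separate tables, so tissue and any difference in handling cannot be told apart.

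The size of the excess varied widely. In HE the largest was that of Slc2a2, at 11.72 ± 0.49 log2 units (± SE), which had 707 and 680.0 CPM in null HE yolk sacs against 0.155 and 0.241 CPM in null HE embryos. Slco4c1 (9.26), Slc7a9 (8.96), Slc13a4 (8.58) and Slc7a8 (8.37) also exceeded 8 log2 units. The smallest excess was that of Slc38a5, a glutamine carrier, at 1.27 ± 0.32, the 1 member whose yolk sac and embryo libraries overlap. In HO the smallest was that of Slc35f2, at 0.56 ± 0.14.

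The homozygous effect was read first against HE, because neither group chose the members. The 8 carriers that fell in HO yolk sacs of both lines were the metal importer Slc39a8, the vitamin C carrier Slc23a1, the amino acid carriers Slc7a7 and Slc38a6, the serotonin carrier Slc6a4, the lysosomal nucleoside carrier Slc29a3, the sulphate carrier Slc26a2 and Slc35g1. In the null line 16 of the 62 members were called (25.8%), 13 lower and 3 higher, against 8.19% of all 17755 genes tested (4.42% lower and 3.77% higher). In the CD line 9 were called (14.5%), all lower, against 3.86% of all genes (2.38% lower). The 8 are 12.9% of the 62, against 2.58% of all genes called with the same sign in both lines. The median of all 62 members was -0.29 log2 units in the null line, with 51 below 0, and -0.19 in the CD line, with 44 below 0. The medians of all genes were 0.02 and 0.00, and those of the 104 other Slc genes -0.12 and -0.04, with 16.3% and 4.81% of those called.

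**Figure D2:**
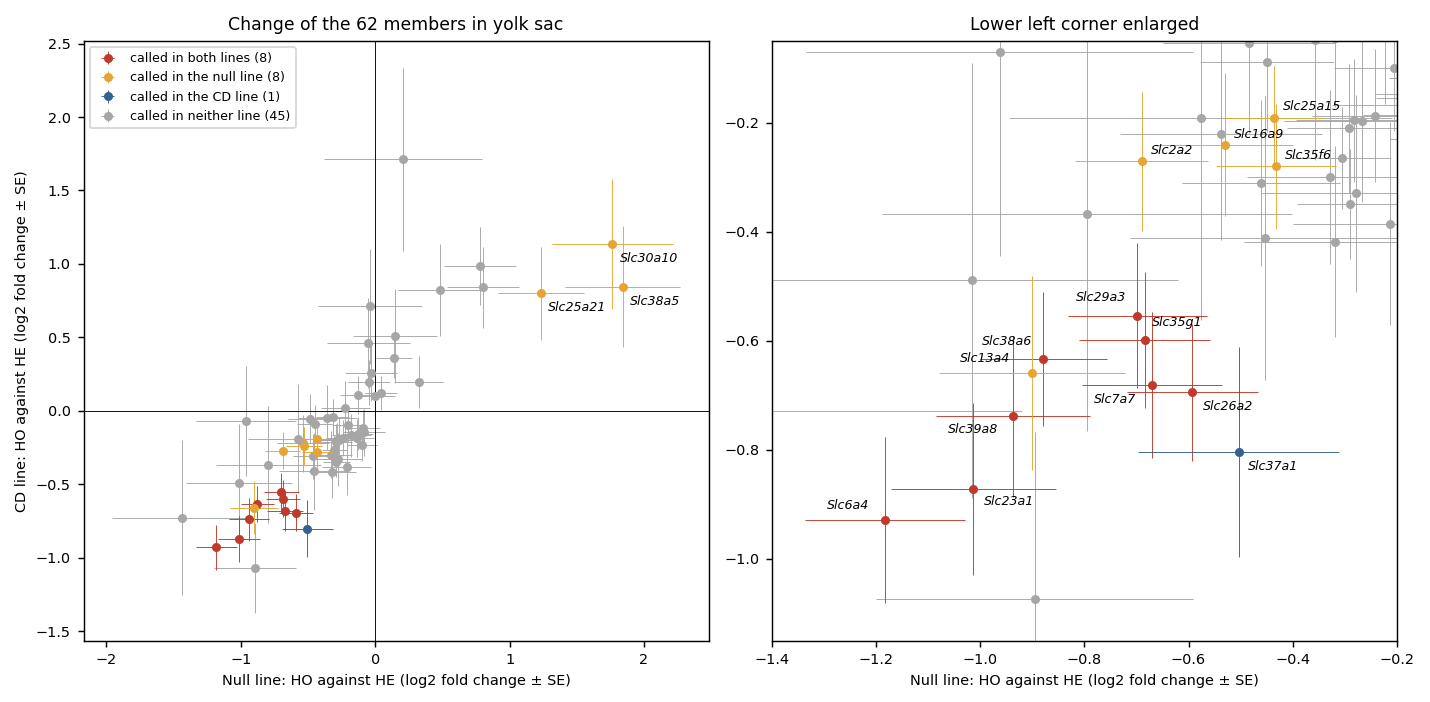
Log2 fold change (± SE) of HO against HE yolk sacs for each of the 62 members, null line on the horizontal axis and CD line on the vertical, with the lower left corner enlarged at the right; colours mark members called in both lines, in 1 line or in neither. Of the 62 points 55 have the same sign in both lines, and the 8 called in both lie at the lower left.

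Slc39a8 had the highest level of the 8. It was at 289 and 363 CPM in null HO and 447 and 350.5 in CD HO yolk sacs, against 637 and 578 in null HE and 663 and 643 in CD HE. No HO value reached an HE value. The change was -0.94 ± 0.15 log2 units (adjusted p = 0.00421) in the null line and -0.74 ± 0.15 (adjusted p = 0.0194) in the CD line. Of the other metal carriers, Slc39a5, Slc39a4 and Slc40a1 gave -0.24, -0.03 and -0.29 in the null line, and none of these passed the test.

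Slc23a1, the vitamin C carrier, was at 63.6 and 93.3 CPM in null HO and 95.7 and 76.2 in CD HO yolk sacs, against 162 and 145 in null HE and 159.9 and 149 in CD HE. The groups did not overlap in either line. The log2 changes were -1.01 ± 0.16 (adjusted p = 0.00405) and -0.87 ± 0.16 (adjusted p = 0.0133). Its relative Slc23a3, whose substrate is not settled, gave -0.22 and 0.02 and was not called.

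Slc6a4, the sodium-coupled serotonin carrier that is the target of many antidepressants, showed the largest fall of the 8 in both lines. It was at 25.3 and 33.98 CPM in null HO and 33.2 and 33.4 in CD HO yolk sacs, against 74.2 and 56.6 in null HE and 59.9 and 64.3 in CD HE. Every HO library lay below every HE library. The changes were -1.18 ± 0.15 log2 units (adjusted p = 0.00141) and -0.93 ± 0.15 (adjusted p = 0.00894).

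Among amino acid carriers, Slc7a7 (y+LAT1, which exports basic amino acids across the basolateral membrane) was at 62.1 and 60.2 CPM in null HO and 71.9 and 62.6 in CD HO yolk sacs, against 92.3 and 97.6 in null HE and 108 and 104 in CD HE. Slc38a6, of the family that carries glutamine and related amino acids with sodium, was at 42.6 and 54.3 CPM in null HO and 57.97 and 52.9 in CD HO, against 91.96 and 81.4 and 89.7 and 79.1 in the 2 HE groups. For both genes all HO values lay below all HE values. Slc7a7 changed by -0.67 (adjusted p = 0.0122) and -0.68 (adjusted p = 0.0188), and Slc38a6 by -0.88 (adjusted p = 0.0023) and -0.63 (adjusted p = 0.0175). Slc7a7 shares exon bases with Oxa1l on the opposite strand, and the sources do not state whether the counting used strand, so its count is uncertain. In all, 13 of the 62 members share exon bases with a gene on the opposite strand and are uncertain in the same way: Slc7a7, Slc25a10, Slc16a6, Slc16a9, Slc25a21, Slc27a2, Slc30a1, Slc30a10, Slc37a1, Slc38a9, Slc43a2, Slc6a20b and Slco2a1. Slc35f6 shares bases with a microRNA gene on its own strand.

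The other 3 shared members were Slc29a3, Slc26a2 and Slc35g1. Slc29a3 (ENT3, which lets nucleosides out of lysosomes) was at 34.1 and 31.7 CPM in null HO and 35.8 and 32.5 in CD HO yolk sacs, against 51.9 and 52.3 in null HE and 55.7 and 42.8 in CD HE. Slc26a2 (the sulphate carrier that cartilage needs for proteoglycan) was at 116 and 165 CPM in null HO and 171 and 181 in CD HO, against 199.9 and 212 and 273 and 287 in the 2 HE groups. Slc35g1 was at 59.1 and 69.8 CPM in null HO and 78.9 and 62.4 in CD HO, against 105 and 97.05 and 113 and 97.5 in the 2 HE groups. In each of the 3 genes the HO and HE libraries did not overlap within a line. Both HO libraries lay below both HE libraries in 39 of the 62 members in the null line and 23 in the CD line. The share of all genes with that order was not counted, so these counts are no result about the members. That order was thus common among members not called, and for called ones it restates the values tested. Their log2 changes in the null and CD line were -0.70 and -0.55 for Slc29a3, -0.59 and -0.69 for Slc26a2, and -0.68 and -0.60 for Slc35g1, with adjusted p in edgeR of 0.00825 to 0.0403.

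**Figure D3:**
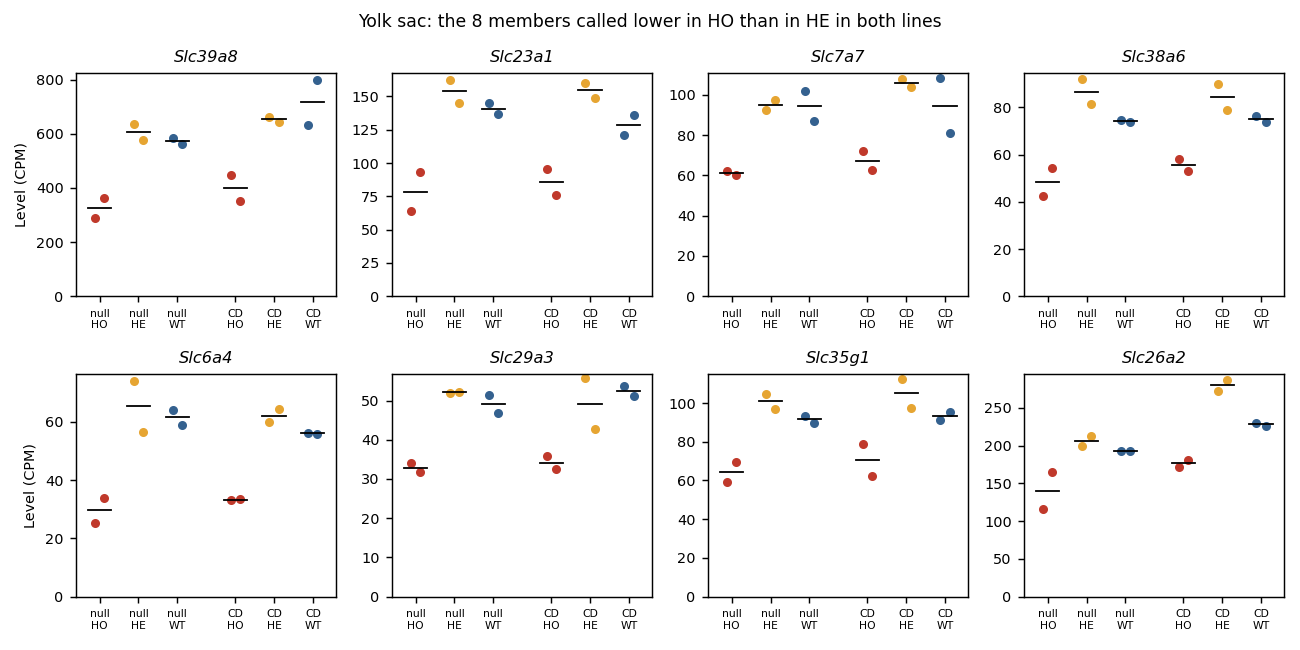
Level in CPM of the 8 members called lower in HO than in HE yolk sacs of both lines, with 1 point per library and HO, HE and WT in that order within the null and the CD line; bars mark group means. In all 8 panels the HO points lie below the HE points of the same line.

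In 15 of the 62 members (24.2%) all 4 HO libraries lay below all 8 HE and WT libraries, against 5.85% of all genes tested. Of those 8 libraries, 4 chose the members, which favours such an order. The 15 are the 8 shared members and Slc13a4, Slc7a9, Slc35c1, Slc35f6, Slc34a2, Slc25a42 and Slc37a1. Above all 8 lay 1 member, Slc6a20b (1.61% against 8.4% of all genes). It was at 18.9 and 16.5 and 16.1 and 20.98 CPM in the HO groups and at 8.30 to 14.9 CPM in the others.

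Further members were called in 1 line only, which is not a test of a difference between the lines. In the null line these were Slc13a4, Slc2a2, Slc25a15, Slc16a9 and Slc35f6, the last 2 named after their values were seen. Slc13a4, the sulphate carrier, was at 291 and 390.1 CPM in null HO against 603 and 634 in null HE (-0.90 ± 0.18, adjusted p = 0.0115), and at 506 and 351 CPM in CD HO against 701 and 628 in CD HE (-0.66 ± 0.18, adjusted p = 0.0608). It lay lower in HO in both lines without overlap. Slc2a2, the glucose carrier, was at 442 and 440.0 CPM in null HO against 707 and 680.0 in null HE (-0.69 ± 0.13, adjusted p = 0.00861), and at 555 and 477 CPM in CD HO against 701 and 523 in CD HE (-0.27 ± 0.13, adjusted p = 0.248). In the CD line those groups overlapped.

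Slc25a15, which carries ornithine into mitochondria for the urea cycle, gave -0.44 ± 0.09 in the null line, Slc16a9 -0.53 ± 0.13 and Slc35f6 -0.43 ± 0.12. The ninth member called in the CD line was Slc37a1, a sugar phosphate exchanger of the endoplasmic reticulum, at 16.2 and 11.2 CPM in CD HO against 21.98 and 25.1 in CD HE (-0.80 ± 0.19, adjusted p = 0.0408). It had 12.1 and 16.4 CPM in null HO against 20.2 and 19.1 in null HE. The difference between the lines itself, the CD minus the null effect of HO against WT in edgeR, was called for 0 of the 62 members, with 0 at an unadjusted p below 0.05, and for 0.0282% of all genes.

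These counts depend on single libraries, and the share of all genes called moved with them. Without null HE replicate 1 or null HO replicate 1 the null line had 4 and 3 members called (1.77% and 1.15% of all genes), without HE replicate 2 or HO replicate 2 it had 10 and 8 (2.6% and 3.9%). The CD line had 2 without HE replicate 1 (0.963% of all genes), 14 without HO replicate 1 (6.42%) and 0 without HO replicate 2 (0.455%). Without CD HE replicate 2, which held transcripts of both sexes, Slc39a8, Slc7a7, Slc26a2 and Slc37a1 lost their calls in the CD line and Slc34a2 gained one. With a term for sex the CD count was 1, Slc6a4 (0.805% of all genes), and with only the 2 groups in the fit it was 0 (0.167%). In the null line Slc6a4, Slc23a1 and Slc38a6 kept their calls under all 11 alternatives run.

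The 3 members of highest FPKM were not called. Slc2a3 was at 3844 and 4527 CPM in null HO against 4827 and 5416 in null HE, and at 4733 and 3959 CPM in CD HO against 5841 and 4662 in CD HE. Slc16a1 was at 1621 and 1718 CPM in null HO against 1583 and 1869 in null HE, and at 1797 and 1682 CPM in CD HO against 1966 and 1814 in CD HE. HO and HE libraries overlapped for Slc2a3 in the CD line and for Slc16a1 in the null line. The log2 changes were -0.33 ± 0.16 and -0.30 ± 0.16 for Slc2a3, and -0.08 ± 0.16 and -0.15 ± 0.16 for Slc16a1. Slc7a8 gave -0.13 ± 0.11 and -0.15 ± 0.11, and the scaffold gene Slc9a3r1 -0.21 ± 0.12 and -0.10 ± 0.12.

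Of the brush border amino acid carriers, Slc6a19 was low and variable. It was at 5.34 and 2.88 CPM in null HO and 2.88 and 5.18 in CD HO, against 14.1 and 7.82 in null HE and 10.2 and 2.75 in CD HE. CD HE replicate 2 lay below the CD HO libraries, and the changes of -1.44 ± 0.52 and -0.73 ± 0.53 did not pass the test. Slc6a18, its neighbour on chromosome 13, gave -0.96 ± 0.37 and -0.07 ± 0.38. Slc7a9 had 74.1 and 61.5 and 61.8 and 73.2 CPM in the HO groups, against 105 and 77.2 and 82.8 and 81.3 in the HE groups, with changes of -0.46 ± 0.15 and -0.31 ± 0.15 that were not called. Slc34a2, a sodium-phosphate carrier, gave -0.90 ± 0.30 and -1.07 ± 0.31, also short of the threshold.

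In all, 17 of the 62 members were called in at least 1 of the 4 yolk sac comparisons of HO and 45 in none, where 11% of all genes tested were called in at least 1 of the 4. Those named in the next sentences were named after their values were seen, to cover each class. The 45 include carriers of organic ions, which kidney and liver use to clear drugs and metabolites. Slc22a2 (OCT2, an organic cation carrier) was at 14.6 and 6.92 CPM in null HO and 7.22 and 13.4 in CD HO, against 27.3 and 15.5 in null HE and 18 and 10.1 in CD HE. Its changes of -1.01 ± 0.39 and -0.49 ± 0.40 had wide errors. Slc47a1 (MATE1, which exports cations for protons) gave -0.79 ± 0.39 and -0.37 ± 0.40. The anion carriers Slc22a6 (OAT1) and Slc22a8 (OAT3), neighbours on chromosome 19, gave 0.15 ± 0.31 and 0.51 ± 0.32, and -0.05 ± 0.31 and 0.46 ± 0.31. Slc13a3, a dicarboxylate carrier, gave -0.28 and -0.33, and Slco4c1 -0.29 and -0.35. On the other side of 0 lay Slco2a1, the prostaglandin carrier, at 0.48 ± 0.31 and 0.82 ± 0.31, and Slc18a1, a vesicular monoamine carrier, at 0.32 ± 0.18 and 0.20 ± 0.18.

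The ion carriers described next were not called either. Slc9a3 (NHE3, which exchanges sodium and protons at the brush border) was at 30.01 and 19.04 CPM in null HO and 13.6 and 19.7 in CD HO, against 16.8 and 10.7 in null HE and 9.95 and 8.25 in CD HE. All 4 HO values of Slc9a3 lay above the HE values of their own line, with changes of 0.80 ± 0.27 and 0.84 ± 0.27 (adjusted p = 0.0878 and 0.109). Slc12a9 and Slc8b1, the sodium and calcium exchanger of mitochondria, gave -0.27 and -0.21 in the null line.

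Of the lipid carriers, Slc27a2, which takes up and activates long fatty acids, had the largest standard error of the 62. It was at 71.5 and 34.7 CPM in null HO and 16.3 and 79.6 in CD HO, against 61.5 and 28.7 in null HE and 19.4 and 9.01 in CD HE, and that error was 0.59 log2 units in the null line. Slc44a4, of the choline carrier family, gave -0.48 ± 0.17 and -0.05 ± 0.17. The amino acid carriers Slc43a2 (LAT4), Slc36a1 (which brings amino acids out of lysosomes with protons) and Slc38a9 (the lysosomal arginine sensor of mTORC1) gave -0.54, -0.18 and -0.14 in the null line and -0.22, -0.17 and -0.19 in the CD line. The concentrative nucleoside carrier Slc28a2 gave -0.45 ± 0.26 and -0.41 ± 0.26. The GDP-fucose carrier of the Golgi, Slc35c1, gave -0.31 ± 0.09 and -0.26 ± 0.09, with all 4 HO values (49.1 to 53.2 CPM) below the 8 others (57.7 to 64.1 CPM). Slc16a6, Slc16a10, Slc16a13, Slc22a23, Slc25a42, Slc35f5, Slc5a9 and Slc5a11 lay between -0.58 (Slc5a11) and 0.04 (Slc16a10) in the null line and between -0.42 (Slc25a42) and 0.71 (Slc5a9) in the CD line.

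The 3 members that rose in null HO yolk sacs were Slc38a5 (SNAT5, a glutamine carrier), Slc30a10 (a manganese exporter) and Slc25a21 (a mitochondrial oxodicarboxylate carrier), the last 2 named after their values were seen. Slc38a5 was at 34.7 and 30.1 CPM in null HO against 11.1 and 6.56 in null HE (1.84 ± 0.43, adjusted p = 0.023). Slc30a10 was at 91.7 and 65.9 CPM in null HO against 26.7 and 18.5 in null HE (1.76 ± 0.45, adjusted p = 0.0345). Slc25a21 was at 24.3 and 19.1 CPM in null HO against 11.01 and 7.05 in null HE (1.23 ± 0.32, adjusted p = 0.0367). In none of the 3 genes did the HO and HE libraries overlap. Slc25a21 shares exon bases with Pax9 and Slc30a10 with Gm2061, so both counts are uncertain.

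Red cell genes differed in the same comparison. The 8 primitive erythroid markers summed to 19209 and 12778 CPM in null HO, against 11872 and 5206 in null HE and 11847 and 13394 in the null yolk sacs labelled WT. Of the 8, 3 rose in null HO against HE: Klf1 (1.504), Epor (1.65) and Gata1 (1.46), a pair of transcription factors and the erythropoietin receptor. Over all genes tested, 3.77% were called higher in that comparison. Null HO replicate 2, at 12778 CPM, lay between the labelled WT libraries in that sum, and had Slc38a5 at 30.1 CPM against 12.2 and 11.3 CPM and Slc30a10 at 65.9 CPM against 28.7 and 30.2 CPM in those libraries. In the CD line 0 of the 8 were called (edgeR; 2 at an unadjusted p below 0.05), and the same sum was 11501 and 16159.6 CPM in HO, 6842 and 15655 in HE and 8186 and 25177 in WT. There Slc30a10 was at 60.5 and 112 CPM in HO, 25.1 and 51.98 in HE and 31.8 and 85.2 in WT. Replicate 2 was the higher in each of those 3 pairs, for Slc30a10 as for the erythroid sum. Slc38a5 was at 22.97 and 40.5 CPM in CD HO, 11.5 and 23.01 in CD HE and 13.1 and 30.2 in CD WT, in the same order within each pair. Beyond these values the part of red cells was not tested.

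**Figure D4:**
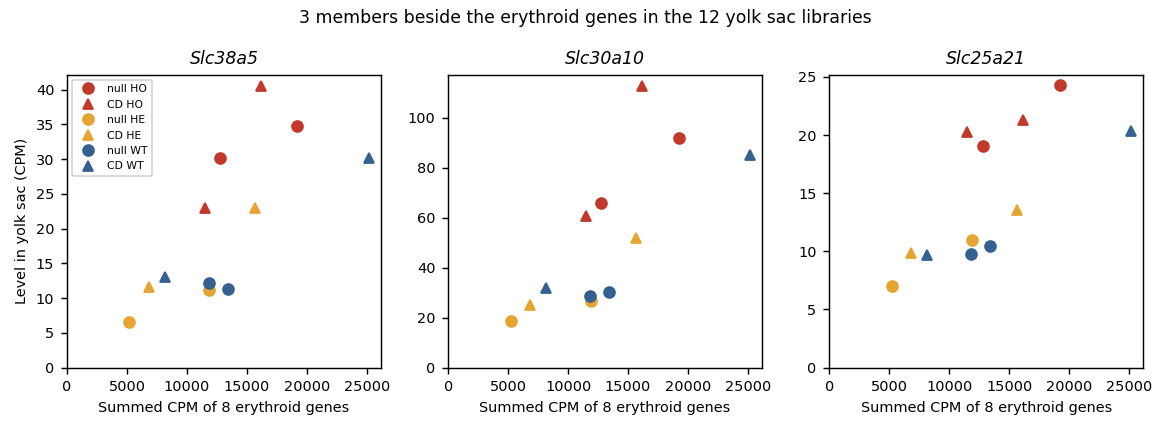
Level in CPM of Slc38a5, Slc30a10 and Slc25a21 in the 12 yolk sac libraries against the summed CPM of 8 primitive erythroid genes, with colour for genotype and marker for line. The null HO libraries lie above the null HE and labelled WT libraries in all 3 panels, and CD WT replicate 2, with the largest erythroid sum (25177 CPM), lies above CD WT replicate 1.

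Against WT the same members led. Since the 4 yolk sac WT libraries chose the set, a lower HO value is partly set by the choice. In the null line 10 members were called, all lower (16.1% against 6.27% of all genes; 3.97% lower): Slc6a4, Slc39a8, Slc23a1, Slc38a6, Slc7a7, Slc29a3, Slc13a4, Slc35g1, Slc2a2 and Slc26a2. In the CD line 6 were called, all lower (9.68% against 3.15%; 1.89% lower), and all 6 are among those 10: Slc39a8, Slc6a4, Slc29a3, Slc7a7, Slc38a6 and Slc23a1. Called with the same sign in both lines were 2.13% of all genes. The lines share no library, and 55 of 62 members had the same sign in both, with Pearson's r of 0.85 across the 62 members. The members share libraries within a line and are not independent. The median was -0.26 in the null and -0.17 in the CD line. All 4 WT libraries were female, while the HO group of each line held male tissue. Both lines thus carry a sex difference in the same direction against WT. Its part in the match of signs between the lines was not tested.

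Slc39a8 was at 584 and 562 CPM in the null yolk sacs labelled WT and 634 and 798 in CD WT, above the 4 HO values given with the HE comparison. Its changes were -0.83 ± 0.15 (adjusted p = 0.00827) and -0.91 ± 0.15 (adjusted p = 0.0092). Slc6a4 was at 63.99 and 59.1 CPM in the null yolk sacs labelled WT and 56.4 and 56.02 in CD WT, with changes of -1.07 ± 0.15 (adjusted p = 0.00282) and -0.82 ± 0.15 (adjusted p = 0.0183). Slc23a1 was at 145 and 137 and 121 and 136 CPM in the same groups, with changes of -0.86 (adjusted p = 0.00943) and -0.64 (adjusted p = 0.049). For all 3 genes every WT library lay above every HO library. HE against WT called 0 members in either line, and 0.0% of all genes (edgeR), with 1 member at an unadjusted p below 0.05 in each, Slc35f2 in the null and Slc9a3 in the CD line. In the null line the level of Setd2 did not part HE from the yolk sacs labelled WT. The 0 of that line is thus no measure of an effect of heterozygosity.

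The counts against WT also rest on single libraries. The null line had 1 call without labelled WT replicate 1, without labelled WT replicate 2 or without HO replicate 1 (0.868% to 1.52% of all genes), and 6 without HO replicate 2 (3.19%). The CD line had 1 without WT replicate 1 or 2 (0.735% and 0.945%), 10 without HO replicate 1 (5.69%) and 0 without HO replicate 2 (0.35%). A sex term left 5 in the null and 0 in the CD line (3.45% and 0.501% of all genes), and a fit of the 2 groups alone gave 19 and 0 (11.2% and 0.39%). With WT and HE together as controls, an alternative chosen after seeing the data, 19 and 12 were called, and 12.3% and 7.67% of all genes. Slc6a4 in the null line passed under all 12 alternatives.

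Windows of 250 bases before the start sites were searched for motifs of endoderm and blood regulators in the promoters of RefSeq (build GRCm38.p6), where 49 of the 62 members were found with 61 promoters. The GATA motif AGATAA, on either strand, stood in 6 of the 61 (9.84%), against 9.99% of all 32851 promoters. The members with it were Slc28a2, Slc35c1, Slc39a8, Slc7a7 and Slc7a9. CAAAGTNCA (HNF4) and TGTTTAC (forkhead) were in none of the 61, against 1.19% and 3.17% of all promoters. No match overlapped one of another motif, 2 of the 6 windows are overlapping ones of Slc7a7, and a match is a description of letters only.

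The windows of 4 members that fell in null HO are shown 5′ to 3′ in the direction of the gene, since these genes carry the lower levels above; capitals mark the GATA motif on either strand. That of Slc39a8 (chr3:135825407-135825656, + strand) ends at a RefSeq start inside the gene and has the motif in reverse at position -30 from that start. That of Slc7a7 (chr14:54417703-54417952, - strand) also ends at a RefSeq start inside the gene and has the motif at position -190 from that start. Those of Slc6a4 (chr11:76998347-76998596, + strand) and Slc13a4 (chr6:35308127-35308376, - strand) hold none of the 3 motifs. RefSeq gives Slc39a8 2 windows and Slc7a7 5, of which 1 each is shown, and 1 of those of Slc39a8 and 3 of those of Slc7a7 hold none of the 3 motifs. In GENCODE M21 (mm10) the genes span chr3:135825279-135888572 (Slc39a8), chr14:54369442-54417780 (Slc7a7), chr11:76998603-77032340 (Slc6a4) and chr6:35267957-35308131 (Slc13a4).
Slc39a8: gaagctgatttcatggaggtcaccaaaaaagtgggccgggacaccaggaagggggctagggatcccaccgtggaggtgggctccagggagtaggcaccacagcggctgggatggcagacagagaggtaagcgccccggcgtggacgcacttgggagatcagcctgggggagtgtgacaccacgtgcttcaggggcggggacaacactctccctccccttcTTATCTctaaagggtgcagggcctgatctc
Slc7a7: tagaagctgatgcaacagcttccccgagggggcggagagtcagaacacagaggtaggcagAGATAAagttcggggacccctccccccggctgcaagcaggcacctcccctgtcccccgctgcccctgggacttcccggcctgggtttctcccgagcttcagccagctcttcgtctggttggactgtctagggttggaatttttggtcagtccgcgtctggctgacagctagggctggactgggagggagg
Slc6a4: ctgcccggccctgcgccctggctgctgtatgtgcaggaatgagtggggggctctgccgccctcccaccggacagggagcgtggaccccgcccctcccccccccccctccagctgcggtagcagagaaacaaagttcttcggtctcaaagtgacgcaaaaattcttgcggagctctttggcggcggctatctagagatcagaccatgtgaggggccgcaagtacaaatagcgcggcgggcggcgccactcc
Slc13a4: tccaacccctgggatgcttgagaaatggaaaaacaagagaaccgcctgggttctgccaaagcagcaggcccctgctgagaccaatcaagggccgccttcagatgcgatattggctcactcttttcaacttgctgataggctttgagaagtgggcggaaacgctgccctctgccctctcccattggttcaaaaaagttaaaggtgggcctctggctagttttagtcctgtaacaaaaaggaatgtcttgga

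Other genes of the visceral endoderm were set beside the carriers, from lists chosen with earlier results of these data known. Of the 18 visceral endoderm markers, 4 fell and 1 rose in null HO against HE, and 4 fell in CD HO against HE, among them Vil1, Apoa4 and Cubn. Over all genes tested, 8.19% were called in the null line and 3.86% in the CD line. Cubn, the uptake receptor for vitamin B12 and protein, changed by -0.74 (adjusted p = 0.00728) and -0.56 (adjusted p = 0.0378) log2 units in the null and CD line. Vil1, the villin of microvilli, changed by -0.60 and -0.56. Apob (-0.61) and Ttr (-0.60) fell in the null line, and Sox17 (1.31), an endoderm and endothelial transcription factor, was the one that rose. Afp gave -0.02 ± 0.27 and 0.27 ± 0.27, Amn -0.13 ± 0.13 and -0.27 ± 0.13, and Hnf4a -0.27 ± 0.14 and -0.18 ± 0.14, none of them called. The marker sum was 37469.8 and 34867 CPM in null HO against 51013 and 45952 in null HE, without overlap. In the CD line it was 32632 and 42207 CPM in HO against 47133 and 39365 in HE, with overlap. The part of this sum in the carriers' fall was not tested.

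The lists that follow have the same background, 8.19% of all genes called in the null line and 3.86% in the CD line against HE. Of the 20 genes of the absorptive machinery, 3 fell (Vil1, Cubn and Heph) and 1 rose (Kcne3) in null HO against HE, and 3 fell in the CD line (Vil1, Abcg5 and Cubn). Vil1 and Cubn, like Sox17 below, also stand among the visceral endoderm markers, so their calls are counted again here. Of 14 endoderm transcription factors, Nr2f2 fell and Sox17 and Klf5 rose in the null line, while 3 fell in the CD line, among them Sox7 and Nr2f2. Of 7 extraembryonic mesoderm genes, 4 fell in null HO, among them Col3a1 (-2.14) and Col1a1 (-1.597), and 3 in CD HO. Their sum was 1352 and 1482 CPM in null HO against 4408 and 3471 in null HE, and 1375 and 1302 CPM in CD HO against 3176 and 2218 in CD HE. Of 6 parietal endoderm genes 2 rose in null HO, one of them Lama1 (1.801), and 0 in CD HO (edgeR; 2 at an unadjusted p below 0.05). Of 7 endothelial, 4 tested leukocyte and 4 tested trophoblast or decidua genes, edgeR called 0 in either line against HE. At an unadjusted p below 0.05 there were 2, 3 and 1 in the null line and 2, 2 and 1 in the CD line. The part of these lists in the carriers' values was not tested.

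In the embryo many members had few counts, and 53 of the 62 passed the filter on low counts there. In null HO embryos 18 of the 53 were called (34%), 14 higher and 4 lower, against 32.7% of all 19215 genes tested (16.2% higher and 16.5% lower), a share near the background. Marker genes of other cell types moved in the same libraries. The visceral endoderm markers summed to 606 and 572 CPM in null HO, against 311 and 319.5 in null WT embryos, without overlap, and of 16 tested 5 were called higher and 1 lower. The 8 trophoblast and decidua genes summed to 0.0760 and 17.3 CPM in null HO, against 0.155 and 0.308 in null WT, high in null HO replicate 2 alone, and the 2 tested, the placental hormone genes Prl3d1 and Prl2c2, were called higher (adjusted p = 0.0101 and 0.0148). The part of these cells in the carriers' values was not tested. In CD HO embryos 11 were called (20.8%), 3 higher and 8 lower, against 16.1% (6.92% higher and 9.14% lower). The null embryo WT libraries chose the members by their low level, which favours a higher HO value in that line. Called in both lines were 5, Slc25a10 and Slc26a6 lower and Slc38a7, Slc30a1 and Slc35f2 higher, which is 9.43% of the 53, against 12% of all genes tested. The 5 are 27.8% of the calls of the null line and 45.5% of those of the CD line, against 36.6% and 74.5% over all genes. The sign matched in 32 of 53, with r of -0.01 across these members. All 4 HO libraries lay below all 8 others in 4 of the 53 (7.55% against 13.2% of all genes): Slc39a8, Slc25a10, Slc25a15 and Slc26a6. They lay above in 6 (11.3% against 11.2%): Slc38a7, Slc16a9, Slc30a1, Slc16a6, Slc35f2 and Slc38a6.

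Slc25a10, the mitochondrial dicarboxylate carrier, was at 15.96 and 11.7 CPM in null HO against 26.8 and 26.4 in null WT embryos (-0.91 ± 0.14, adjusted p = 0.00039), and at 17.7 and 14.8 CPM in CD HO against 24.6 and 26.5 in CD WT (-0.67 ± 0.14, adjusted p = 0.00639). Slc26a6, an exchanger of chloride, oxalate and bicarbonate, was at 2.96 and 2.49 CPM in null HO against 5.05 and 5.55 in null WT, and at 2.76 and 3.29 CPM in CD HO against 4.74 and 4.96 in CD WT. Both lay below WT without overlap, while in yolk sac neither was called: Slc25a10 gave -0.07 and 0.05 against WT there. Slc25a10 shares exon bases with Gm11788 and its count is uncertain.

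Slc35f2 was at 24.7 and 22.5 CPM in null HO against 8.73 and 7.32 in null WT (1.59 ± 0.23, adjusted p = 0.000316), and at 18.8 and 24.9 CPM in CD HO against 8.96 and 15.3 in CD WT (0.83 ± 0.22, adjusted p = 0.0247). Slc38a7, a lysosomal glutamine exporter, was at 27.9 and 28.4 CPM in null HO against 23.7 and 22.4 in null WT, and at 31.8 and 33.5 CPM in CD HO against 22.8 and 22.7 in CD WT (0.50 ± 0.09, adjusted p = 0.00289). The HO libraries lay above WT in both genes. Slc2a3, the glucose carrier with the highest level in the set, was at 1664 and 1468 CPM in null HO against 609 and 723 in null WT (1.26 ± 0.19, adjusted p = 0.000432), and at 1625 and 1576 CPM in CD HO against 892 and 1547 in CD WT (0.37 ± 0.19, adjusted p = 0.202). In the CD line it was WT replicate 2 that stood near the HO level. The scaffold gene Slc9a3r1 rose by 0.76 and Slc22a23 by 0.62 in null HO embryos.

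CD embryo WT replicate 2 stood apart. Its visceral endoderm markers summed to 1263 CPM, against 416 CPM in replicate 1, with Apob at 339 against 39.5 CPM and Cubn at 214 against 16.2 CPM. Slc2a2 was at 0.115 and 0.384 CPM in CD HO embryos, against 1.08 in WT replicate 1 and 11.1 in WT replicate 2, and was called lower (-4.65 ± 0.99). It had only 14 counts in both null WT embryos together. The CD WT libraries, where it was high, thus helped it pass the filter on low counts, and its lower call was partly set by that filter. Slc7a8 (-2.100), Slc39a4 (-2.13) and Slc13a4 (-2.18) were called lower as well. Without that library 7 members were called (14.7% of all genes), 5 higher and 2 lower, and Slc2a2, Slc7a8, Slc39a4, Slc13a4, Slc26a6, Slc30a1 and Slc39a8 were not. Slc16a9, Slc2a3 and Slc9a3r1 then rose in CD HO embryos, and Slc35f2 by 1.28. Slc25a15, the ornithine carrier, changed by -0.38 (adjusted p = 0.0062) with that library in the fit. The CD HO embryos were female and the CD WT embryos male, and with a sex term 1 member was called (5.79% of all genes). Leaving out WT replicate 1 of the CD embryos gave 17 calls (9.47%), leaving out HO replicate 1 gave 3 (6.75%), leaving out HO replicate 2 gave 7 (6.3%), and a fit of the 2 groups alone gave 4 (8.33%). In the null line, where both WT embryos were female and the HO embryos 1 of each sex, 11 were called without WT replicate 1 or without WT replicate 2 (18.8% and 18.1% of all genes). The CD minus null difference was called for 0 of the 53 members by edgeR (20 at an unadjusted p below 0.05), and for 0.0208% of all genes.

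**Figure D5:**
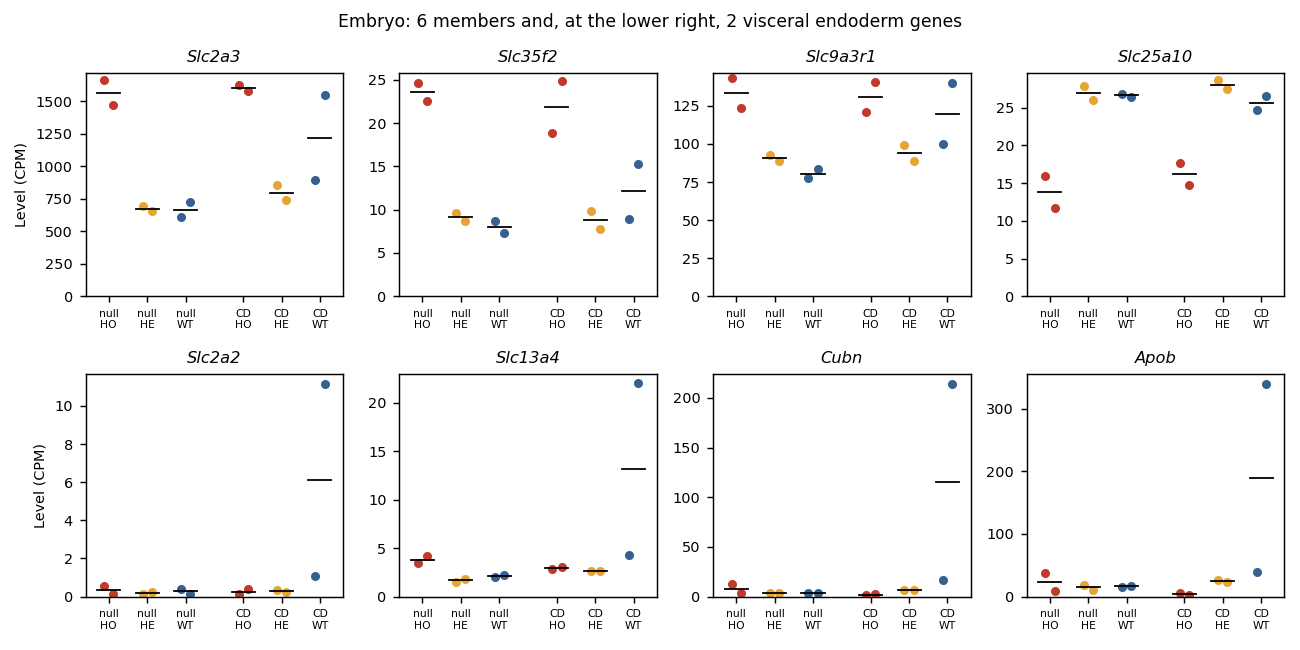
Level in CPM in the 12 embryo libraries, 1 point per library with HO, HE and WT in that order within each line and bars at the group means, for 6 members and for 2 visceral endoderm genes at the lower right. CD WT replicate 2 stands above the other CD libraries in Slc2a2 (11.1 CPM) and in the visceral endoderm genes, and HO lies below WT for Slc25a10 in both lines.

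The homozygous effect itself differed between the tissues for 21 of the 62 members (33.9%), against 16.6% of all 20543 genes (edgeR, difference of the HO effects against WT over both lines). In 17 of the 21 the yolk sac effect was the lower one and in 4 the higher (8.59% and 8.01% of all genes), with the WT libraries of both tissues having chosen the members. Slc35f2 and Slc2a3, higher in HO embryos, were not called in yolk sac, where Slc35f2 had 25.98 and 28.2 CPM in null HO against 30.98 and 28.4 in the null yolk sacs labelled WT. Slc6a4 and Slc13a4, low in embryo, are not among the 21. Slc38a5, Slc30a10 and Slc25a21 were lower in null HO embryos, at 3.46 and 1.12, 6.58 and 2.16 and 2.32 and 1.37 CPM, against 3.84 and 5.28, 7.61 and 10.2 and 3.3 and 4.28 CPM in null WT. Of these, Slc25a21 passed the test in the embryo (-0.997, adjusted p = 0.0333). The erythroid markers summed to 1268 and 91.3 CPM in null HO embryos against 1993 and 2969 in null WT. The part of red cells in the values of those 3 carriers was not tested.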

How the data were processed

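Messenger RNA was sequenced from 24 libraries, 12 of embryos and 12 of yolk sacs. The tools named are fastp 0.22.0, HISAT2 2.2.1, featureCounts 2.0.1 and DESeq2 1.32.0, with the mouse build mm10, per the submitters' processing notes. No source used here states the annotation release, the use of strand or the treatment of reads that match several places. The authors deposited raw read counts per gene and FPKM values, in 1 table per tissue. The deposited FPKM values equal counts over gene length and library total (0 values off by more than 0.001 of the value) and were used only to compare levels between genes.

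CPM is a count over its library total. Tests used the counts in edgeR 4.0.16 (R 4.3.3, limma 3.58.1) with TMM scaling, filterByExpr (minimum count 10, minimum total 15), its quasi-likelihood test and p-values adjusted by Benjamini-Hochberg over all genes tested, at 0.05; "called", "rose" and "fell" mean past it. Each tissue was fitted with its 12 libraries in 6 groups (17755 genes in yolk sac and 19215 in embryo, 6 residual degrees of freedom), and both together for contrasts of tissue (20543 genes, 12 degrees of freedom). The common coefficient of variation was 0.165 in yolk sac and 0.087 in embryo. The fits were checked on simulated counts. Replicates differed by more than sampling noise in every group (chi-square per degree of freedom 2.95 to 32.3). Groups came from the labels alone.

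The members and lists were chosen with earlier results of these data known. Named are the 12 members of highest FPKM, up to 12 called members of smallest p in each yolk sac and 6 in each embryo comparison of HO, those nearest the thresholds, Setd2, up to 4 called genes per marker list, and single genes said to be named after their values were seen; the values of 1 member and 1 marker gene are not reported here. Alternatives were other scaling, no filter, DESeq2 1.42.0, a sex term, a replicate block, fewer groups and leaving out each library.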

Additional observations from a re-analysis of the deposited data

Results flagged for a closer look

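For 21 members the effect of HO against WT differed between yolk sac and embryo, by edgeR's test of the difference itself over both lines at an adjusted p below 0.05 (all 24 libraries in 1 fit). This was 33.9% of the 62 members, against 16.6% of all genes. The values that follow are the yolk sac effect minus the embryo effect in log2 units, and since WT libraries chose the members, part of a lower value in yolk sac is set by the choice. The reasons were not tested.

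In 17 members the yolk sac effect was the lower. The widest gaps were those of Slc16a9 (-1.59), Slc35f2 (-1.41) and the glucose carrier Slc2a3 (-1.10), whose levels were higher in HO than in WT embryos of the null line. The carriers that fell in HO yolk sacs follow: Slc7a7 (-0.90), Slc23a1 (-0.86), Slc38a6 (-0.85), Slc35g1 (-0.75), Slc39a8 (-0.50), Slc26a2 (-0.42) and Slc29a3 (-0.41). Smaller or mixed gaps were found for Slc9a3r1 (-0.63), Slc38a7 (-0.60), Slc35f6 (-0.56), Slc16a6 (-0.53), Slc35f5 (-0.42), Slc22a23 (-0.40) and Slc35c1 (-0.39).

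In 4 members the yolk sac effect was the higher: Slc38a5 (1.65), Slc30a10 (1.61) and Slc25a21 (1.53), which were higher in null HO yolk sacs and lower in null HO embryos, and the dicarboxylate carrier Slc25a10 (0.76), which fell in HO embryos of both lines. The erythroid markers summed to 19209 and 12778 CPM in null HO yolk sacs, against 11847 and 13394 in the null yolk sacs labelled WT, with overlap, and 11872 and 5206 in null HE, without overlap. In embryos they summed to 1268 and 91.3 CPM in null HO, against 1993 and 2969 in null WT. Their part was not tested.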

How the results depend on the processing

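Under the alternatives run, no call of a single member reversed its direction. Of 506 values under other settings 434 kept their side of the threshold and 72 lost the call, and of 280 with 1 library left out 127 kept it and 153 lost it. In yolk sac HO against WT the 10 calls of the null line became 22 with no filter on low counts, 5 with a sex term, 19 with only the 2 groups compared and 19 with WT and HE together as controls (chosen after seeing the data). The 6 of the CD line became 3 with library totals alone, 17 with no filter, 11 with DESeq2, 0 with a sex term, 0 with only the 2 groups (both in edgeR) and 12 with WT and HE together. In HO against HE the 16 of the null line became 28 with no filter, and the 9 of the CD line became 18 with no filter, 14 with DESeq2, 1 with a sex term and 0 with only the 2 groups. In embryo the 11 of the CD line became 18 with no filter, 1 with a sex term and 4 with only the 2 groups. Over all genes the share called moved as well, from 0.868% to 12.3% in the null and 0.35% to 7.67% in the CD line against WT, and from 1.15% to 10.9% and 0.167% to 7.13% against HE. The cause of these shifts was not tested.

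Leaving out each library in turn gave 1 to 6 calls for null HO against WT and 0 to 10 for CD HO against WT in yolk sac, 3 to 10 and 0 to 14 against HE, and 11 to 20 and 3 to 17 in embryo; a group left with 1 library is assumed to vary like the others. The set itself held 59 to 64 members when 1 WT library was left out, and all 62 stayed called between the tissues. A replicate block gave 11 and 4 calls against WT and 17 and 8 against HE in yolk sac. Same-numbered libraries deviated together with correlations of 0.0197 to 0.0979, so the numbers are not shown to pair the samples. The 9 members with too few embryo counts to pass the filter were not tested within embryo.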
